A study of Mus musculus with 8 samples.

Results

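The loci described are those of 10 genes for SOX transcription factors (Sox1, Sox2, Sox4, Sox5, Sox6, Sox8, Sox9, Sox10, Sox11 and Sox17), out of 21938 protein-coding genes in the mouse annotation. A locus was the gene body with 50 kb on each side, and membership was set by gene name, from a list drawn up with earlier results of these data known. Open chromatin had been mapped by ATAC-seq, in which a transposase inserts sequencing adapters into accessible DNA, and the stretches where fragments pile up are called as peaks. The cells were SN4741, a clonal mouse line from the embryonic day 13.5 substantia nigra, immortalised with a temperature-sensitive SV40 T antigen driven by the tyrosine hydroxylase promoter, which all libraries carried. There were 4 libraries of undifferentiated cells at 37 °C in 10% serum and 4 of cells switched for 48 h to 39 °C, where the T antigen is less active, in 0.5% serum. Temperature and serum cannot be told apart in this design. No source used here says whether the replicates came from separate cultures, so the p-values measure only the spread between these libraries.

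SOX factors share a DNA-binding domain, the HMG box, that sits in the minor groove and bends the DNA. The SoxB1 factors (Sox1 and Sox2 here) keep neural progenitors undifferentiated, and the SoxC factors (Sox4 and Sox11) act in progenitors leaving the cell cycle and in immature neurons. The SoxD factors (Sox5 and Sox6) have no transactivation domain of their own and work with other SOX factors, in cartilage and in neurons. The SoxE factors (Sox8, Sox9 and Sox10) act in neural crest and glia, and the SoxF factors (Sox17 here) in endoderm and endothelium. A peak at a promoter shows accessibility and does not measure transcription.

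The peak lists differed in length, from 74026 to 92013 peaks at 37 °C and from 54845 to 68410 at 39 °C, on 49.8 to 169 M and 52.7 to 71.2 M fragments. A given peak therefore ranks higher in a long list, which holds more weak peaks below it. Most comparisons were for this reason also made with equal numbers of peaks, the 54845 of highest −log10 q in each list. This cut leaves 39 °C replicate 4, the shortest list, whole. The marker counts, the covered parts of the Sox10 promoter region and gene body, and the 1 Mb surroundings were taken from the full lists only. Merged over the libraries, the loci held 86 regions called in at least 2 of them, 11 at promoters (no more than 1 kb from a start site of transcription, or TSS, of the gene) and 75 distal, of 84777 regions in all. Of the marker promoters reported here, those called in all 8 libraries were 3 of 5 for neural progenitors, 3 of 5 for the oligodendrocyte lineage, 6 of 6 for mesenchyme or neural crest and 1 of 6 for endothelium, beside 59.9% of protein-coding genes. No library called a promoter peak for 1 gene of each of the first 2 lists (Fabp7 and Olig2) and for 2 endothelial genes (Cdh5 and Tie1). In the same order of lists, 1 of 5, 1 of 5, 0 of 6 and 3 of 6 were called in fewer libraries at 39 °C, beside 7.97% of genes.

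Sequence from 4 distal regions is shown because the temperature differences below rest on them or are read against them. The first lies in the region at Sox4 that only the 39 °C libraries called, and the second in a Sox6 intron, in a region that only the 37 °C libraries called. The third lies in one of the Sox10 regions called only at 37 °C, and the last in the strongest distal region at Sox4, which all 8 libraries called. Each runs 5′ to 3′ on the plus strand of mm10, 201 bp centred on the median summit of the peaks, and capitals mark a match to a searched motif.
Sox4, 39 °C only, chr13:28944018-28944218: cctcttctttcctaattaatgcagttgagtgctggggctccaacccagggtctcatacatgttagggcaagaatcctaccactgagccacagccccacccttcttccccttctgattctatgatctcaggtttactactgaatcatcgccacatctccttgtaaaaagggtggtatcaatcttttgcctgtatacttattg
Sox6, 37 °C only, chr7:115784614-115784814: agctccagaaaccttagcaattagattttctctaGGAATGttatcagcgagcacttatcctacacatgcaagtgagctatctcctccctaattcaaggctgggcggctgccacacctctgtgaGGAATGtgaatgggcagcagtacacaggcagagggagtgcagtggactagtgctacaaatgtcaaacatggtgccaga
Sox10, 37 °C only, chr15:79205714-79205914: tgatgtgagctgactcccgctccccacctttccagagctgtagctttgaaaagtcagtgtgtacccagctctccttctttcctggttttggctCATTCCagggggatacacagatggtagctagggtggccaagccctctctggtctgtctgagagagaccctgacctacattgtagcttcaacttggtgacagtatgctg
Sox4, all 8 libraries, chr13:28958279-28958479: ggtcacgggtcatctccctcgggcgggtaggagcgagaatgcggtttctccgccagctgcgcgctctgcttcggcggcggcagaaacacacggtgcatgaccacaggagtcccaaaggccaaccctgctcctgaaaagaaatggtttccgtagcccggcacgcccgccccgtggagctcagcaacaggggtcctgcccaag
The marked letters are matches to GGAATG, the motif of TEAD factors, with 2 in the Sox6 sequence and 1, on the minus strand, in the Sox10 sequence. These were the only 2 of the 7 regions called only at 37 °C with such a match within 100 bp of the summit, and the Sox10 one had the lowest mean percentile of the 7. The 39 °C-only Sox4 sequence held no match to any of the 5 motifs searched and had a GC content of 45.8%, against 64.7% in the constant Sox4 sequence. The reference marks 29.4% of the 39 °C-only sequence as repeat, and none of the constant one.

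Most of these promoters were open at both temperatures. Of the 10 genes, 7 had a promoter peak in all 8 libraries, a share set beside 59.9% of protein-coding genes. The promoters of Sox1 and Sox10 were called in 4 of 4 libraries at 37 °C and in 3 of 4 at 39 °C, both missing from replicate 1, where 7.97% of genes had fewer libraries at 39 °C. No promoter was called in more libraries at 39 °C, beside 0.47% of genes. Sox17 had no promoter peak in any library, as had 31.3% of genes. How strongly a promoter stood out was measured as the percentile of −log10 q of its strongest peak within its own list, so that 100 is the best peak of that library. By this measure 5 of the 7 promoters were lower at 39 °C with no overlap between the temperatures (Sox2, Sox5, Sox6, Sox8 and Sox11), which holds for 52.4% of all promoters tested. None was higher, against 0.51% of all. In the exact permutation test (two-sided) each of the 5 had p = 0.0286, the smallest that 4 against 4 libraries allow, and an adjusted p of 0.0540 over all genes, so none passed at 0.05. Over all 13145 promoters none passed after adjustment either, and 6955 had an unadjusted p under 0.05.

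On lists of equal length only the promoter of Sox2 remained lower without overlap, where 15.4% of all promoters were lower and 7.75% higher. The promoter peak of Sox2 ranked at 96.1, 95.9, 95.04 and 96.0 at 37 °C and at 94.2, 94.7, 93.3 and 94.8 at 39 °C on those lists. The gap between the groups was narrow, with the lowest library at 37 °C just above the highest at 39 °C. Setting an uncalled promoter at a percentile of 0, a choice made after the data were seen, added Sox1 and Sox10 to the promoters lower without overlap (7 of 9, against 51.3% of all tested). That count was 2 on lists of equal length, Sox2 and Sox10, against 16.2%.

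**Figure D1:**
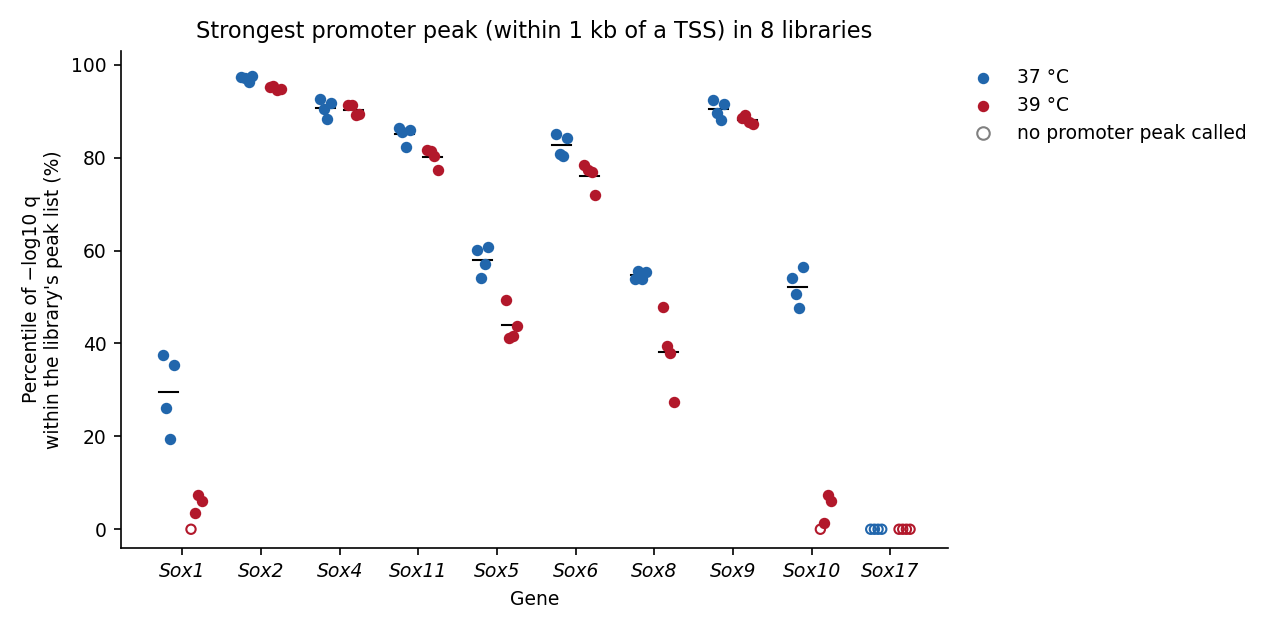
Percentile of −log10 q, within the library's own peak list, of the strongest peak within 1 kb of a TSS of each gene (y axis, %), by gene and temperature. Each point is 1 library, the bars are means of 4, and open circles at 0 mark libraries with no promoter peak. Sox2, Sox4, Sox9, Sox11 and Sox6 lie above 70 in every library, Sox5 and Sox8 between 27 and 61, and Sox1 and Sox10 under 8 at 39 °C.

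Peaks away from the promoters were counted in each library. Over the 10 loci together the libraries at 37 °C held 83.8 ± 4.43 distal peaks and those at 39 °C 68.5 ± 7.72 (mean ± SD of 4 libraries), a ratio of 0.818 beside 0.776 for the whole lists. The totals on lists of equal length were 54.8 ± 2.50 and 55.0 ± 2.16. Of the 9 genes with any distal peak, only Sox6 had fewer at 39 °C without overlap, where 30.7% of genes did. None had more, against 0.247%. No gene of the 9 was called in either direction on lists of equal length, beside 6.37% and 3.88% of all genes. The promoter peaks of Sox1, Sox4 and Sox10 are split in some libraries, and their outer pieces then count as distal. When every peak inside the merged promoter region was left out, a choice made after the data were seen, Sox6 and Sox10 were lower at 39 °C and Sox4 was higher, beside 31.9% and 0.232% of genes. Only the Sox4 call was left with equal numbers of peaks, where 7.33% of genes were lower and 3.74% higher.

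**Figure D2:**
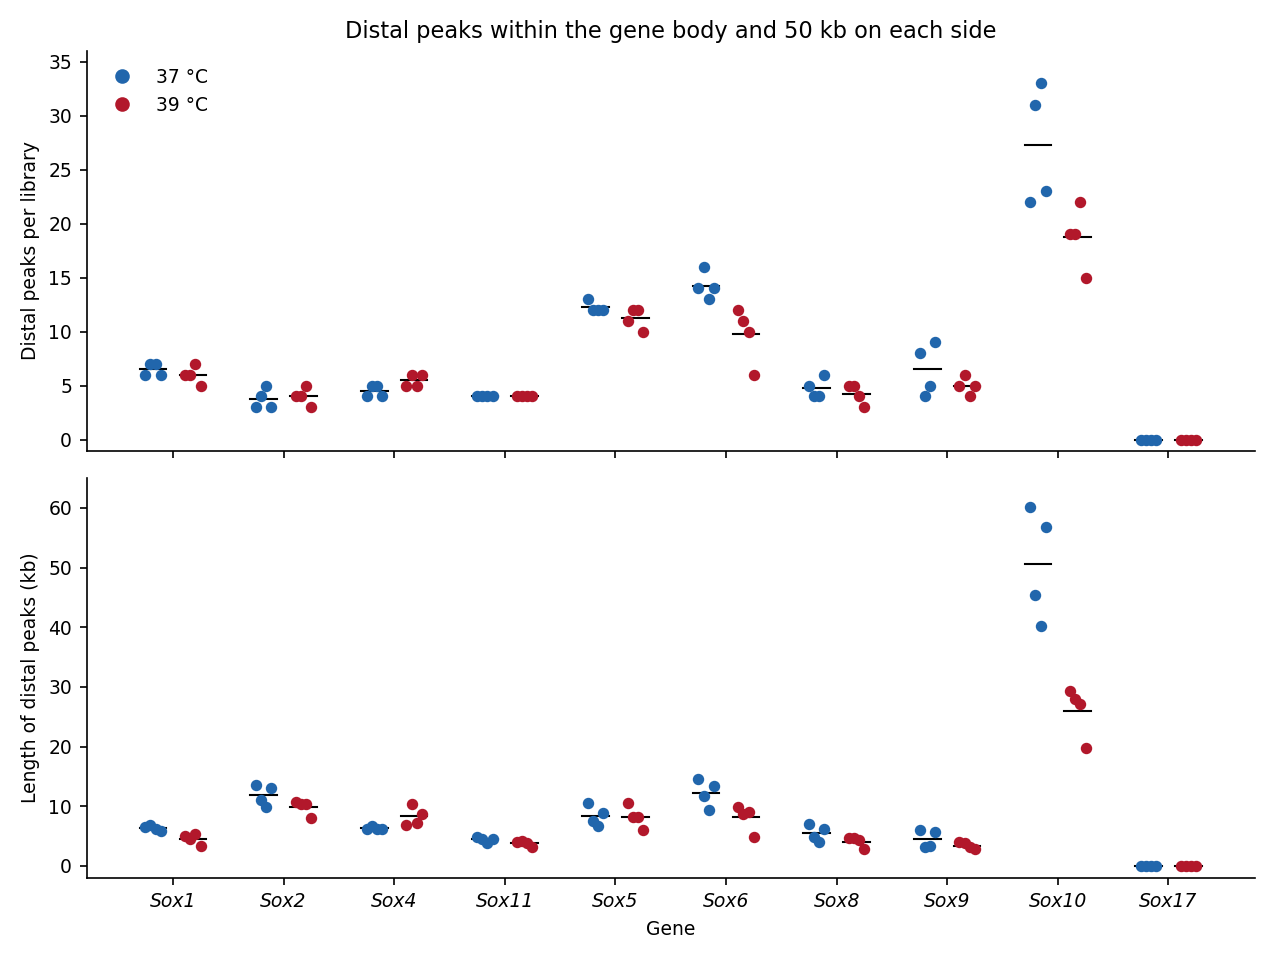
Number of distal peaks (upper panel) and their summed length (lower panel, kb) in each locus, by gene and temperature, counting every peak not within 1 kb of a TSS of the gene. Each point is 1 library and the bars are means of 4. Sox10 stands above the other loci in both panels and Sox17 has no peak.

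Sox2, which maintains neural progenitors and is one of the reprogramming factors, had the strongest promoter of the group. The gene is a short one at chr3:34650405-34652461 (mm10, plus strand), inside the long noncoding gene Sox2ot. Its promoter peak ranked at 97.4, 97.1, 96.3 and 97.6 at 37 °C and at 95.2, 95.5, 94.6 and 94.8 at 39 °C. The drop was 2.08 percentile points, and the peak was about equally wide at both temperatures, 4002 ± 80.5 and 3966 ± 130 bp (exact permutation p = 0.714). Distal peaks numbered 3, 4, 5 and 3 at 37 °C and 4, 4, 5 and 3 at 39 °C. The strongest lay downstream, with its summit in an intron of Sox2ot, within 1 kb of another start site, and ranked at 83.5 to 88.3 at 37 °C and at 76.5 to 82.1 at 39 °C.

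Sox1, the other SoxB1 gene and a marker of neuroectoderm, had a weak promoter peak that fell to the bottom of the lists at 39 °C. It lies at chr8:12395295-12400126 on the plus strand. The promoter ranked at 37.5, 26.0, 19.5 and 35.4 at 37 °C. At 39 °C it was not called in replicate 1 and ranked at 3.57, 7.40 and 6.14 in the others. The merged promoter region, which is wider, was called in all 8 libraries, at 30.5 to 37.5 and at 3.57 to 10.97. These peaks were 2.45 to 2.99 times the background in fold enrichment at 39 °C and 3.53 to 3.99 times at 37 °C, against a median peak of 5.59 to 9.18 in the 8 lists. In lists of equal length the promoter was called in 1 library at each temperature, while a peak in the wider merged promoter region was called in 3 libraries at 37 °C and in 1 at 39 °C. Distal peaks numbered 6, 7, 7 and 6 and then 6, 6, 7 and 5, an overlap. Outside the merged promoter region they numbered 6 in each library at 37 °C and 5, 5, 6 and 4 at 39 °C, also an overlap. The summed length of all distal peaks, a measure added after the data were seen, was 6358 ± 425 bp at 37 °C and 4565 ± 861 bp at 39 °C with no overlap (exact permutation p = 0.0286, adjusted p = 0.0703), where 40.4% of genes were lower. Outside the promoter region it was 5729 ± 670 and 3742 ± 755 bp, again with no overlap, where 40.9% were lower. The strongest distal region, chr8:12354123-12355553, lay 40.6 kb upstream, within 1 kb of a start site of Gm22207. It ranked at 81.2 to 84.6 at 37 °C and at 55.3 to 69.8 at 39 °C, apart without overlap. All 7 merged regions at Sox1 were lower in this way, beside 43.7% of all regions. With equal numbers of peaks 1 of 6 was, beside 22.3%.

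Sox4 held the one region of these loci that was called only at 39 °C. This SoxC gene, active in immature neurons and in many proliferating tissues, has a single start site at chr13:28948919-28953713, minus strand. Its promoter ranked at 92.5, 90.5, 88.4 and 91.7 at 37 °C and at 91.3, 91.3, 89.1 and 89.3 at 39 °C, values that overlap (exact permutation p = 0.657). On lists of equal length the difference changed sign, to 2.35 points higher at 39 °C (exact permutation p = 0.0857). The promoter peak covered the whole gene in some libraries and was split in others: it was 7475 and 7432 bp wide in replicates 1 and 4 at 37 °C and 4177 and 4100 bp in replicates 2 and 3. At 39 °C it was 7848 and 7666 bp wide in replicates 1 and 3 and 4231 and 4160 bp in replicates 2 and 4.

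All distal peaks at Sox4 numbered 4, 5, 5 and 4 at 37 °C and 5, 6, 5 and 6 at 39 °C, which overlap (exact permutation p = 0.171, adjusted p = 0.320), as they did with equal numbers of peaks (exact permutation p = 0.0857). Outside that promoter region, the count added after the data were seen, Sox4 had 4 distal peaks in each library at 37 °C and 5 in each at 39 °C, the same numbers with equal numbers of peaks. In the exact permutation test the difference had p = 0.0286, with an adjusted p of 0.0890 over all genes and 0.258 with equal numbers of peaks. The added peak was the region of which the first sequence above is the centre, chr13:28943754-28944264, 511 bp wide and 9.60 kb downstream of the 5′ end of Sox4. It lay in an intron of Gm26735, a noncoding gene that overlaps Sox4, and within 1 kb of a start site of it. When peaks at start sites of other genes were left out, this region went with them and the number of distal peaks at Sox4 did not differ (difference 0, exact permutation p = 1.0). No library at 37 °C called it, and the 39 °C libraries ranked it at 32.3, 37.6, 35.5 and 24.8, in the lower part of their lists. Among all regions 0.314% were called in all 4 libraries at 39 °C and in none at 37 °C. The other distal regions at Sox4 were called in all 8 libraries. The strongest of them, 4.67 kb upstream, ranked at 93.6, 89.5, 90.0 and 92.9 at 37 °C and at 92.4, 92.6, 92.9 and 91.4 at 39 °C, with no separation. With equal numbers of peaks, 5 of the 6 merged regions at Sox4 ranked higher at 39 °C without overlap (an uncalled library at 0), beside 14.6% of all regions, where 1 did on the full lists, beside 1.04%.

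**Figure D3:**
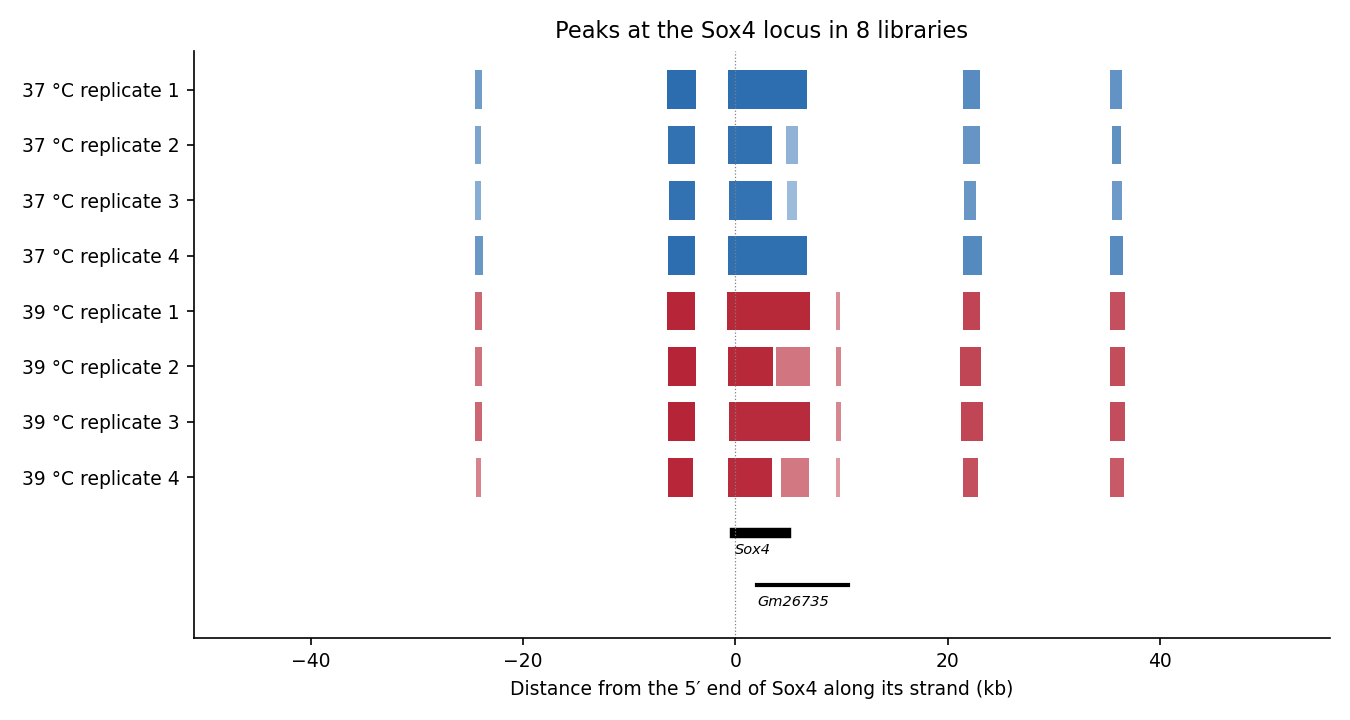
Peaks at the Sox4 locus in each of the 8 libraries (rows), by distance from the 5′ end along the Sox4 strand (x axis, kb). Each block is 1 peak, darker where its −log10 q percentile is higher, and black bars are genes. A narrow peak near 10 kb appears in the 4 libraries at 39 °C and in none at 37 °C.

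Summed over distal peaks, Sox4 covered 6219, 6730, 6142 and 6268 bp at 37 °C and 6825, 10394, 7200 and 8741 bp at 39 °C. It was the one locus of the 10 where this length was higher at 39 °C without overlap, against 0.221% of all genes and 1.18% with equal numbers of peaks. The pieces of the split promoter peak weigh in these sums. Without them the means were 5811 ± 536 and 6828 ± 530 bp, and the groups overlapped (exact permutation p = 0.0857). The share of the 1 Mb around Sox4 under peaks was also not lower at 39 °C, 3.12% against 2.77%, while for the median coding gene it was 4.61% against 6.16%.

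Sox11, the other SoxC gene and a factor of newborn neurons, had the same number of distal peaks in every library. It lies at chr12:27334264-27342574 on the minus strand. All 8 libraries called exactly 4 distal peaks there, 2 upstream, 1 within the gene and 1 downstream. The strongest by the mean over all 8 libraries, chr12:27293822-27295190, lay 48.1 kb downstream and ranked at 65.3 to 73.6 at 37 °C and at 62.1 to 69.6 at 39 °C, an overlap. Both upstream regions were lower at 39 °C without overlap, the one at 48.0 kb with 66.5 to 72.3 against 24.8 to 48.1 and the one at 32.5 kb, the strongest at 37 °C alone, with 64.0 to 74.7 against 47.9 to 58.6. With the promoter these made 3 of 5 regions, beside 43.7% of all regions, and on lists of equal length 2 were lower and 1 higher, beside 22.3% and 14.6%. Its promoter ranked at 86.4, 85.4, 82.3 and 85.9 at 37 °C and at 81.7, 81.5, 80.3 and 77.4 at 39 °C, lower without overlap, but with equal numbers of peaks the groups mixed (exact permutation p = 0.657). The promoter peak narrowed from 2916 ± 250 to 2592 ± 46.9 bp with no overlap (exact permutation p = 0.0286, adjusted p = 0.122), the only width of the 7 to do so, beside 23.4% of all promoters. None of the 7 widened without overlap, beside 0.129% of all. The 1 kb on each side of its start had a GC content of 67.2% and an observed to expected CpG ratio of 0.967, above 99% of coding genes in both, whereas Sox10 had a CpG ratio of 0.305.

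Sox5 and Sox6 are long genes whose peaks lie almost all inside them. Sox5 (chr6:143828425-144781977, minus strand) regulates cartilage and the migration and identity of cortical neurons, and Sox6 (chr7:115470872-116038796, minus strand) marks dopaminergic neurons of the substantia nigra among its many sites. All 12 distal regions at Sox5, and 13 of 14 at Sox6, lay in the gene body. The density was low, 1.12 distal peaks per 100 kb at Sox5 and 1.80 at Sox6, where the median coding gene had 4.06.

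The promoter of Sox5 ranked at 60.05, 54.2, 57.1 and 60.7 at 37 °C and at 49.2, 41.3, 41.7 and 43.8 at 39 °C. The groups were clearly apart here, yet mixed with equal numbers of peaks, where the difference shrank from -14.0 to -2.51 points (exact permutation p = 0.571). Its distal peaks numbered 13, 12, 12 and 12 at 37 °C and 11, 12, 12 and 10 at 39 °C, and 9 of the 12 merged distal regions were present in all 8 libraries. The strongest, chr6:144716091-144717102 in an intron, ranked at 69.9 to 76.1 at 37 °C and at 58.7 to 64.5 at 39 °C.

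At Sox6 the promoter ranked at 85.1, 80.7, 80.4 and 84.3 at 37 °C and at 78.3, 77.4, 76.8 and 71.9 at 39 °C. These groups also mixed on lists of equal length (exact permutation p = 0.20). The peak ranked here had its summit 934 to 1099 bp from the nearest Sox6 start site. Its merged region had its median summit 59 bp from a start site of Sox6os, another gene. A further promoter region had its summit 489 bp from a start site of 1110004F10Rik. The remaining one, 850 bp from a Sox6 start site, ranked at 37.7 to 60.7 at 37 °C and at 14.3 to 42.2 at 39 °C. The distal peaks fell from 14, 16, 13 and 14 to 12, 11, 10 and 6 (exact permutation p = 0.0286, adjusted p = 0.0923). The fewest came from 39 °C replicate 4, the shortest list, and without that library the difference was -3.25 in place of -4.50 with the groups still apart. On lists of equal length the counts were 12 in each library at 37 °C and 12, 9, 8 and 6 at 39 °C, which touch at 12 (exact permutation p = 0.143).

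Of the 14 distal regions at Sox6, 5 (35.7%) were called in all 8 libraries and 8 (57.1%) in more libraries at 37 °C, beside 45.7% and 42.9% of regions away from any start site, as all 14 were. In 2 of these all 4 libraries at 37 °C called the region and none at 39 °C did, and both were the only 37 °C-specific regions of the 10 loci that remained with equal numbers of peaks. One, chr7:115784234-115784987 in an intron 254 kb into the gene, ranked at 40.0, 33.3, 31.7 and 50.3 at 37 °C, and its centre is the second sequence above. The other, chr7:115844409-115844985 over an exon, ranked at 44.8, 37.3, 38.7 and 47.2. Both were in the middle to lower part of the lists, not among the weakest peaks. By contrast the strongest distal region, chr7:115499756-115502826 in an intron far downstream, was called in every library at 72.4 to 78.0 and 68.9 to 72.8.

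Sox10, which drives neural crest, Schwann cell, melanocyte and oligodendrocyte fates, had the most distal peaks and the longest covered length of the 10 loci. The gene lies at chr15:79154908-79165240 on the minus strand, close to the coding genes Polr2f, 1700088E04Rik and Micall1. Its distal peaks, at 20.8 per 100 kb, were denser than at 99.9% of coding genes. They numbered 22, 31, 33 and 23 at 37 °C and 19, 19, 22 and 15 at 39 °C, which touch at 22 (exact permutation p = 0.0571, adjusted p = 0.159). Cut to equal length, the lists gave 8, 10, 11 and 9 peaks and then 10, 8, 11 and 15, so that the direction of the means turned. The 15 came from 39 °C replicate 4, the list that this cut leaves whole. The 2 deep libraries at 37 °C, with 169 and 158 M fragments, had fewer but wider peaks than the other 2.

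Outside the merged promoter region, which the split pieces of the promoter peak belong to, Sox10 had 21, 27, 29 and 22 distal peaks at 37 °C and 14, 15, 16 and 12 at 39 °C, and these groups did not overlap (exact permutation p = 0.0286, adjusted p = 0.0890). With equal numbers of peaks the counts were 8, 10, 9 and 9 against 9, 8, 9 and 12, which overlap, and the 12 was again that of 39 °C replicate 4.

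The length covered by all distal peaks at Sox10 also separated the temperatures. They covered 60127, 45451, 40175 and 56741 bp at 37 °C and 29247, 27901, 27051 and 19769 bp at 39 °C. No library overlapped with the other group, and the ratio of the means was 0.513 (exact permutation p = 0.0286, adjusted p = 0.0703). The groups stayed apart with equal numbers of peaks, where 31.9% of genes were lower.

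The Sox10 gene itself was spanned by peaks at 37 °C and only partly at 39 °C. The merged promoter region, 20554 bp wide, was covered by peaks over 20.2, 16.9, 13.7 and 19.8 kb at 37 °C and over 5.74, 3.89, 4.55 and 3.39 kb at 39 °C. Of the gene body, 93.1% to 100% was under peaks in the 37 °C libraries and 30.3% to 46.7% in the 39 °C libraries. The peak at the promoter was 16564, 12915, 7853 and 18666 bp wide at 37 °C, and 677, 405 and 405 bp in the 39 °C libraries that called it. It was not a tall one: its fold enrichment was 6.51 to 7.22 at 37 °C and 2.22 to 2.99 at 39 °C, against 56.2 and 60.9 for the Sox4 promoter in the deep 37 °C libraries. Its percentile was 54.0, 50.7, 47.5 and 56.4 at 37 °C and 1.38, 7.40 and 6.14 in the 39 °C libraries that called it. At 37 °C the summits lay 2003, 2071, 3793 and 2123 bp from the nearest Sox10 start site. At 39 °C they lay 43, 10 and 130 bp from one, so this percentile was read at different sites. Over the whole merged promoter region, called in all 8 libraries, the strongest peak had the same percentiles at 37 °C and 23.6, 12.9, 24.6 and 14.3 at 39 °C, a smaller drop. In lists of equal length the Sox10 promoter was called in 4 libraries at 37 °C and in 1 at 39 °C, and 3.77% of coding genes had fewer libraries at 39 °C there.

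**Figure D4:**
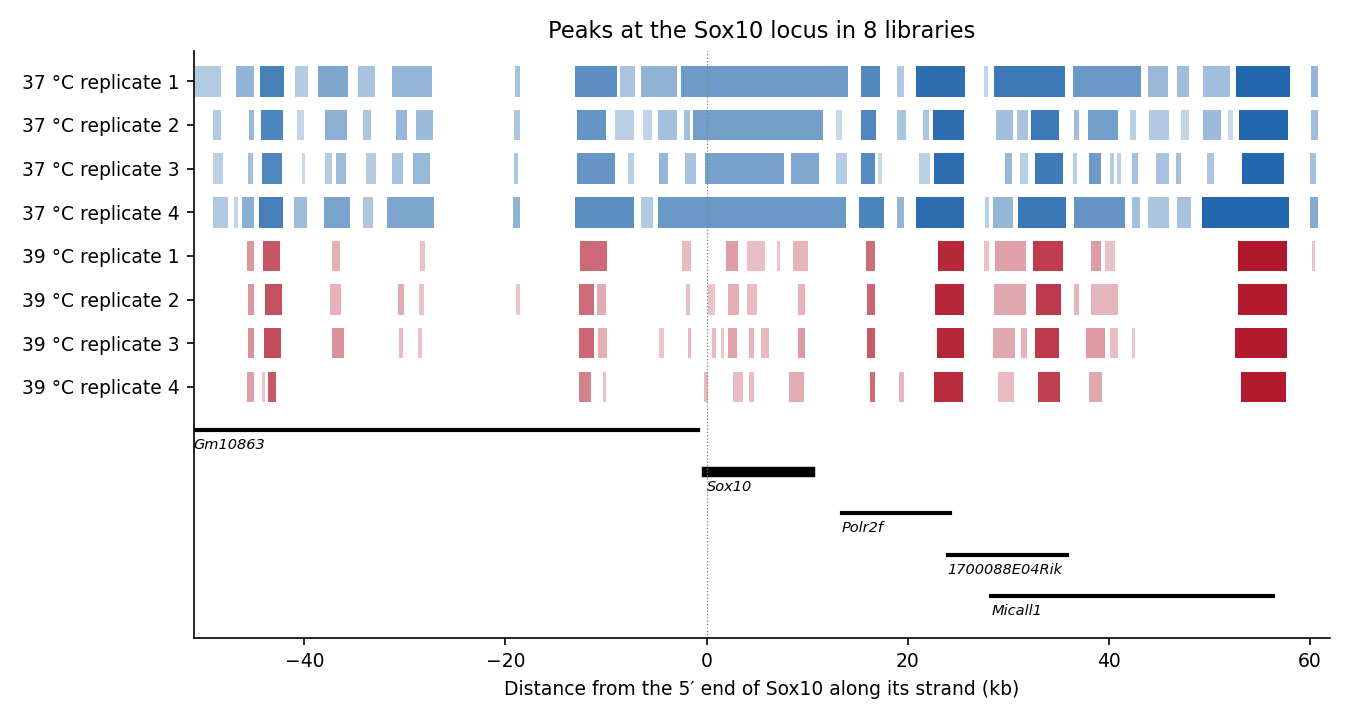
Peaks at the Sox10 locus in each of the 8 libraries (rows), by distance from the 5′ end along the Sox10 strand (x axis, kb). Each block is 1 peak, darker where its −log10 q percentile is higher, and black bars are genes. The gene body of Sox10 lies under wide pale peaks at 37 °C and under short ones at 39 °C, while the dark peak near 56 kb, at Micall1, is present in all 8 libraries.

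The surroundings of Sox10 differed in the same way. In the 1 Mb centred on the locus 54.6%, 44.2%, 39.4% and 54.3% of the bases lay under peaks at 37 °C and 24.1%, 24.4%, 22.7% and 20.0% at 39 °C, again without overlap. The 37 °C mean, 48.1%, was above that of 99.2% of coding genes. The peaks had been called against 1 genome-wide background per library with no local one, and the part of this stretch in the Sox10 values was not tested. Of the 19 distal regions, 9 lay within 1 kb of a start site of another gene. The strongest, at the Micall1 start site, ranked at 99.1 to 99.4 at 37 °C and at 99.6 to 99.8 at 39 °C. There were 5 regions called in all 4 libraries at 37 °C and in none at 39 °C, with summits in introns of Micall1 or Gm10863 and all weak, with mean percentiles of 9.60 to 19.3 at 37 °C. In Micall1 these were chr15:79117078-79118507 and chr15:79119272-79121336, and in Gm10863 chr15:79198114-79199873, chr15:79204931-79206229 (of which the third sequence above is the centre) and chr15:79212842-79216914. None of the 5 remained with equal numbers of peaks.

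Sox9, which acts in cartilage, neural stem cells and astrocytes, had the strongest SoxE promoter. At chr11:112782224-112787760 (plus strand) it ranked at 92.4, 89.7, 88.2 and 91.5 at 37 °C and at 88.5, 89.1, 87.7 and 87.3 at 39 °C, an overlap (exact permutation p = 0.0857). On lists of equal length the difference turned to 0.39 points higher at 39 °C. Distal peaks numbered 8, 4, 5 and 9 at 37 °C and 5, 6, 4 and 5 at 39 °C, the highest counts being those of the deep libraries. Its strongest distal region by the mean over all 8 libraries, 36.8 kb downstream, ranked higher at 39 °C on average, 63.0 against 56.1, with overlapping ranges of 54.9 to 67.0 and 49.9 to 64.3. At 37 °C alone the region 23.9 kb upstream was the strongest, with a mean of 70.4. It was one of 3 of the 8 regions lower at 39 °C without overlap, beside 43.7% of all regions. These lay 23.9 kb upstream (66.5 to 74.6 against 22.1 to 53.5), 29.5 kb downstream (55.7 to 66.2 against 43.1 to 47.4) and 42.1 kb downstream (44.3 to 55.9 against 0 to 23.7, an uncalled library at 0). Cut to equal length, the lists gave 2 regions lower and 1 higher of 6 at Sox9, beside 22.3% and 14.6%.

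Sox8, which overlaps with Sox9 and Sox10 in function, had a weak promoter, its mean percentile of 46.5 being at or above 4.53% of the promoters called in all 8 libraries, whose median was 90.0. At chr17:25565892-25570686 (minus strand) it ranked at 53.9, 55.7, 53.9 and 55.4 at 37 °C and at 47.9, 39.5, 37.9 and 27.5 at 39 °C. The lowest was again 39 °C replicate 4, and with equal numbers of peaks the groups mixed (exact permutation p = 0.429). Distal peaks numbered 5, 4, 4 and 6 and then 5, 5, 4 and 3. The strongest region, chr17:25578472-25580138 at the start site of Lmf1, ranked at 85.9 to 87.6 and then at 80.4 to 83.3. The 1 Mb around Sox8 was under peaks for 21.3% of its length at 37 °C and 11.5% at 39 °C, so that this locus too lies in densely called surroundings.

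Sox17, a factor of endoderm and arterial endothelium, had no peak at all. None of the 8 libraries called one in the 106 kb of its locus around chr1:4490931-4497354 (minus strand), at either temperature. The nearest merged regions lay 78.1 kb from one end of the gene and 62.6 kb from the other. Across the annotation 13.4% of coding genes had no distal peak in any library.

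Taken region by region, promoters included, 53 of the 86 regions, or 61.6%, were called in all 8 libraries, beside 52.9% of all regions. Another 27 were called in more libraries at 37 °C, which is 31.4% beside 37.9%, and 4 in more at 39 °C, 4.65% beside 5.46%. There were 7, or 8.14%, called in all 4 libraries at 37 °C and in none at 39 °C, 5 at Sox10 and 2 at Sox6, beside 6.04% of all regions, and 1 the other way round, at Sox4. Of the 58 regions away from any start site, 48.3% were called in all 8 libraries, beside 45.7% of such regions. Another 43.1% were in more libraries at 37 °C, beside 42.9%. Those called only at 37 °C made 12.1%, beside 6.24%, and 4.76% beside 3.1% with equal numbers of peaks. With equal numbers of peaks the loci held 69 regions, promoters included, of which 2 were called only at 37 °C and 1 only at 39 °C, beside 2.67% and 1.92% of all regions. In rank, a comparison added after the data were seen, 52 of the 86 were lower at 39 °C without overlap and 2 higher, beside 43.7% and 1.04% of all. With equal numbers of peaks 16 of the 69 were lower and 13 higher, beside 22.3% and 14.6%.

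**Figure D5:**
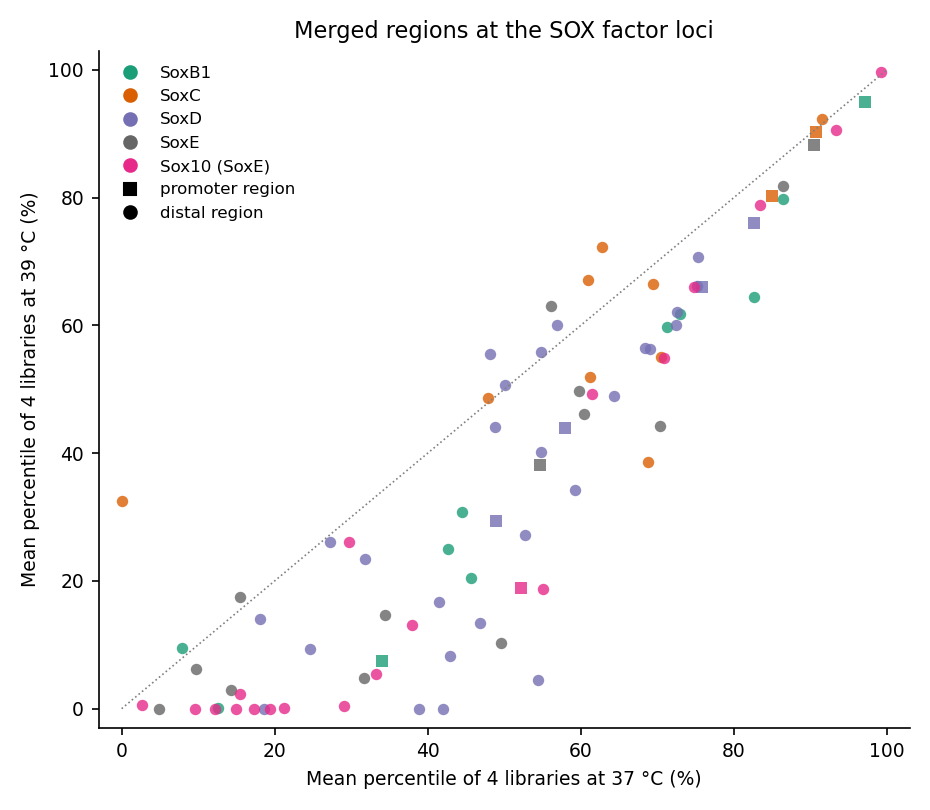
Mean −log10 q percentile of each merged region at the loci over the 4 libraries at 37 °C (x axis, %) and at 39 °C (y axis, %), counting a library without a call as 0. Squares are promoter regions, circles distal regions, colours subfamilies, and the dotted line marks equal values. Most regions lie below the line, and the point at 0 on the x axis is the 39 °C-only region at Sox4.

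The 58 distal regions away from any start site were searched within 100 bp of the summit, on both strands, for letters of 5 motifs. The motifs that SOX factors bind, AACAATG and AACAAAG, were present in 3 of them, or 5.17%, beside 9.23% of 62699 such regions across the genome. TGACTCA, the motif of AP-1, was in 34.5% beside 28.7%, GGAATG (TEAD) in 24.1% beside 19.0% and TGTGGTT (RUNX) in 12.1% beside 11.6%. The pooled AP-1 share leans on Sox5, where most distal regions held TGACTCA, while at Sox6 only chr7:115448454-115449211 did. The median GC content was 48.8% in both sets, and 1 of the 58 was marked as repeat over more than 50% of its letters, beside 7.86% of all.

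The other 9 Sox genes of the annotation (Sox3, Sox7, Sox12, Sox13, Sox14, Sox15, Sox18, Sox21 and Sox30) were counted in the same way. The promoters of 4 were open in all 8 libraries (Sox12, Sox13, Sox18 and Sox21), and those of Sox3, Sox14 and Sox30 in none. Sox7, a SoxF gene, went from 4 libraries at 37 °C to 1 at 39 °C, and Sox15 from 4 to 2. On lists of equal length Sox7 was called in none at either temperature and Sox15 in 4 and 1. Of the 4 promoters open throughout, 2 ranked lower at 39 °C without overlap (52.4% of all), and of the 8 genes with distal peaks 1 had fewer (30.7% of all). Lists of equal length gave 1 promoter lower (Sox18) and 1 higher (Sox12), beside 15.4% and 7.75% of all. They gave 1 gene with fewer distal peaks (Sox18) and 1 with more (Sox7), beside 6.37% and 3.88%. In length of distal peaks 5 of the 8 were lower at 39 °C without overlap, beside 40.4% of genes, and none was higher.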

How the data were processed

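ATAC-seq peak lists of 8 libraries (4 at 37 °C, 4 at 39 °C) were used. The authors aligned reads to mm10 with Bowtie2 2.4.1, sorted and deduplicated them with SAMtools 1.15.1 and Picard 2.26.11, and called peaks per library with MACS3 3.0.0a7 at q 0.05 without control or local background. Their methods also describe removing peaks in blacklisted regions with bedtools 2.30.0. Peak numbers have no gap in any of the 8 lists, so the lists may date from before that removal. The deposited lists give each peak its −log10 of the q-value and its fold enrichment, a ratio of pileup to background. They hold no read counts per region. As −log10 q rises with depth, it was turned into a percentile within each list.

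A peak belonged to a locus if it overlapped gene body plus 50 kb (GENCODE M21) by 1 bp. It was a promoter peak within 1 kb of any TSS of the gene and distal otherwise. Libraries were compared per gene by the exact permutation test over all 70 assignments, two-sided, with Benjamini-Hochberg adjustment over all coding genes, and a gene was called when the groups did not overlap. Coding genes with no peak of the kind tested were left out: percentiles and widths needed a promoter peak in all 8 libraries. Peaks of all libraries were merged at 1 bp, and regions in at least 2 libraries kept. Sequence and repeat marks came from the RefSeq GRCm38 genome. All 10 genes were named, with the strongest distal region of each and every region called at 1 temperature only. The genes, the marker lists and the tests were chosen with earlier results of these data known. Alternatives covered the q cutoff, equal numbers of peaks, promoter and flank distances, TSSs of protein-coding transcripts only, peaks at other TSSs, region coverage, the deep libraries, each library and the replicate numbers. Python 3.11.15, numpy 2.4.6, scipy 1.17.1, pandas 2.3.3 and pysam 0.24.0 were used, and scripts were tested on simulated data. In each of the neural progenitor and oligodendrocyte marker lists 1 gene is not reported here.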

Additional observations from a re-analysis of the deposited data

Results flagged for a closer look

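One value stood apart from the rest of its group by Dixon's test at the 95% level: the 37 °C replicate 1 library had 13 distal peaks at Sox5, and the other 3 libraries at that temperature had 12 each. Among the 50 groups tested about 2.5 such values arise by chance, 1 in 20.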

How the results depend on the processing

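The number of genes with fewer distal peaks at 39 °C was 1, and it was 2 with −log10 q of at least 5, promoters of 5 kb, flanks of 100 kb, no peaks at other TSSs, only the 6 libraries under 100 M fragments, distal length in place of number, or peaks outside the merged promoter region. It was 0 with equal numbers of peaks. The number with more was 0, and 1 with promoters of 5 kb, with distal length and outside the promoter region. Promoter percentiles lower at 39 °C went from 5 to 1 with equal numbers of peaks. Their number was 4 with −log10 q of at least 5 or with protein-coding TSSs only, and 7 with promoters of 5 kb. Promoters called in all 8 libraries went from 7 to 6 with protein-coding TSSs only and to 9 with promoters of 5 kb. Narrower promoter peaks went from 1 to 3 with promoters of 5 kb. The 7 regions called only at 37 °C became 2 with equal numbers of peaks or flanks of 20 kb, and 11 with flanks of 100 kb, with 50% of a region covered, or without the deep libraries. The count of 39 °C-only regions was 1 under every alternative run for it. Among regions away from any start site it was 0, as the Sox4 region lies within 1 kb of one. Leaving out each library in turn gave 1 to 2 genes with fewer distal peaks, 1 to 3 narrower promoters, 5 to 7 lower promoter percentiles, 7 to 9 promoters in all libraries and 7 to 9 regions only at 37 °C, and the exact permutation test then cannot go below p = 0.0571.

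Of the differences (39 °C minus 37 °C) that changed sign, those with groups apart in the main comparison were, with equal numbers of peaks, the Sox1 percentile with uncalled at 0 (0.56) and the Sox10 distal peaks outside the promoter region (0.50). The others there were the distal peaks of Sox5 (0.75), Sox9 (0.25) and Sox10 (1.5), the distal length at Sox5 (865 bp) and the promoter percentiles of Sox4 (2.35) and Sox9 (0.39). Without the deep libraries they were the distal peaks of Sox2 (-0.50), Sox8 (0.25) and Sox9 (0.50), the Sox4 percentile (0.83) and the widths at Sox5 (11.2 bp) and Sox6 (124 bp). Flanks of 20 kb turned the distal peaks of Sox1 (0.50), flanks of 100 kb those of Sox2 (-0.75), and promoters of 5 kb the Sox4 percentile (0.59) and width (-426 bp). Single libraries left out moved the Sox2 distal peaks to between -0.0833 and 0.67, the Sox4 percentile to between -1.33 and 0.0613, its width to between -444 and 786 bp and the Sox6 width to between -155 and 13.3 bp. Without 37 °C replicates 2 and 3 and without 39 °C replicates 1 and 3 the Sox4 width differences were -359, -385, -444 and -383 bp. The cause of these changes was not tested.

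With the replicate number as a block, 2 genes had fewer distal peaks in all pairs and 3 had narrower promoters. No share of all genes is given for this rule, so these counts have no background to be read against. The replicate numbers did not pair the libraries: the correlations of same-numbered libraries were 0.29, -0.0592, -0.20 and -0.51, and no paired test of 4 pairs can go below p = 0.125. A peak missing from a list does not show closed chromatin. At 37 °C the Sox1 promoter ranked at 37.5 and 35.4 in the libraries of 169 and 158 M fragments and at 26.0 and 19.5 in those of 64.2 and 49.8 M. The summits lay 1609 and 1526 bp from the start site in the former and 208 and 292 bp in the latter. Over the merged promoter region the ranks were 37.5 and 35.4 against 32.5 and 30.5. The part of depth in the calls at Sox1 and Sox10 was not tested.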
